A study of Mus musculus with 6 samples.

Results

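The mitosis and kinetochore genes are a set of 50 genes that act in the division of a cell, from the cyclins that start mitosis to the proteins that hold, condense and separate the chromosomes. They were taken by name from a list and found in the count table through their Ensembl identifiers, and all 50 were present among the 57132 genes listed and among the 16263 genes tested. RNA was sequenced from 3 samples of immortalized WT podocytes (Col4a3+/+) and 3 samples of immortalized AS podocytes (Col4a3-/-), called sets 1 to 3 in each genotype. Alport syndrome (AS) is a kidney disease caused by faults in type IV collagen, and podocytes are the epithelial cells that wrap the capillaries of the glomerulus. The labels give male mice 8 weeks of age as the source. Both lines carry the H-2Kb-tsA58 transgene, a temperature-sensitive SV40 large T antigen under an interferon-inducible promoter. They were grown at 33 °C with interferon gamma at 20 U/mL per the labels, differentiated for 14 days at 37 °C and left untreated. The study's methods give another medium, a lower dose of interferon gamma and a shorter differentiation. Each genotype was 1 cell line, so that genotype and line cannot be told apart, and the sources do not say if the sets were grown apart. The p-values therefore measure only the spread between these samples.

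As background, cyclin B with Cdk1 drives cells into mitosis, and most genes of this set are switched on together late in the cell cycle by the MuvB complex with B-Myb and FoxM1. The kinetochore ties each chromosome to spindle fibres, the spindle checkpoint delays separation until all are tied, and the anaphase-promoting complex then releases the sister chromatids. Mature podocytes in the kidney are known as cells that rarely divide. Lines made with the tsA58 antigen divide at the lower temperature and are taken to leave the cell cycle at the higher one, as the antigen loses its activity.

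Each value below is CPM, the count of a gene relative to the total of its library after TMM scaling. Genes were called where the quasi-likelihood test of AS against WT in edgeR gave an adjusted p below 0.05. The total counts of the 6 libraries lay between 45417221 and 54290968, and a member held between 424 and 20253 counts over the 6 samples. Col4a3 was at 938 to 1272 CPM in WT and 61.2 to 82.9 CPM in AS samples, as the labels state. Of 10 podocyte markers, 8 were tested, of which 6 were lower and 1 was higher in AS podocytes. Of all genes tested, 19.6% were called lower and 20.4% higher. Synpo (actin-binding synaptopodin) was at 497 to 847 CPM over the 6 samples. The slit diaphragm gene Nphs1 was at 0.455 to 0.473 CPM in WT and 0 to 0.078 CPM in AS samples. Wt1 was at 15.3 to 25.8 CPM in WT and 1.44 to 3.14 CPM in AS samples (log2 fold change -3.04, adjusted p = 3.57e-05, edgeR). The summed level of 7 endothelial markers was at most 1.67 CPM and that of 7 macrophage and leukocyte markers at most 15.4 CPM. Of 7 tubule markers, Lrp2 was at 196 to 307 CPM and Umod and Aqp2 were at 0. Of 7 mesangial and fibroblast markers, 6 were tested, of which 1 was higher and 1 lower. Col1a1 was at 19.5 to 26.9 CPM in WT and 409.6 to 591 CPM in AS samples, Pdgfrb at 242 to 269 CPM in WT and 115 to 116 CPM in AS samples, and Acta2, which was not called, at 5503 to 7648 CPM. The part of these markers in the results below was not tested.

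Promoter sequences of the mitosis and kinetochore genes were read first. The genes were listed by name, so the shares below describe the list and not the difference between AS and WT. A promoter here is the window of 300 bases around a gene's start in RefSeq (GRCm38.p6), and 41 of the 50 members had 46 such windows. No window was held for Ccna2, Cdc25c, Foxm1, Aurkb, Incenp, Spc24, Tpx2, Kif20a and Smc4. The cell cycle homology region, the element that MuvB binds, was searched as TTTGAA or TTCGAA, and the site of the factor NF-Y as CCAAT, on both strands. The first was in the windows of 32 of the 41 genes (78.0%), against 21.7% of the 27025 genes in the table. CCAAT was in those of 30 genes (73.2%), against 41.1%, and both were in the same window for 27 genes (65.9%), against 8.61%. Both were held by 19 of the 31 genes called lower, by 7 of the 9 that were not called and by Spc25, and the difference was not tested. A match is a run of letters and not a measured site, and binding was not measured. The windows of the 3 members with the smallest adjusted p that held both motifs are shown for the 250 bases before the start, 5′ to 3′, with the motif letters in capitals (CCAAT read from the other strand appears as ATTGG).
Ncapd2 (minus strand, GRCm38.p6 chr6:125191587-125191836): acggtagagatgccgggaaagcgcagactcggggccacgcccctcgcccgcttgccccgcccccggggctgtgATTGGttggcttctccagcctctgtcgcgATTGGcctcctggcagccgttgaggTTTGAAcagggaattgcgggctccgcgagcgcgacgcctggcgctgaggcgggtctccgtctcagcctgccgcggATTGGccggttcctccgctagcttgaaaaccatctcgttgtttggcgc
Bub1 (minus strand, GRCm38.p6 chr2:127831860-127832109): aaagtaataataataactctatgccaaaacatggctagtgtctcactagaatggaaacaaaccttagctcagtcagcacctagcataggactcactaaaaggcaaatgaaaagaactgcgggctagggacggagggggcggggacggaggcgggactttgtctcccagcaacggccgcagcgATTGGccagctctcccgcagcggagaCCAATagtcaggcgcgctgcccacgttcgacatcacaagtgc
Cdc20 (minus strand, GRCm38.p6 chr4:118437344-118437593): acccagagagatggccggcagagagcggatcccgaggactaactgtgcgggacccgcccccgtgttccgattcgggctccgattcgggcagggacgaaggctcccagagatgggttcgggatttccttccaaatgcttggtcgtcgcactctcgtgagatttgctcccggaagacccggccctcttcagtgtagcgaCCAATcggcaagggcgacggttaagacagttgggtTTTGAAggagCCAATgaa
The homology region began 123 bases before the start in Ncapd2 and 18 bases before it in Cdc20. In Bub1 it began at base 15 after the start, outside the stretch shown.

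When compared to WT podocytes, AS podocytes had lower RNA levels of most mitosis and kinetochore genes. Of the 50 genes, 39 were lower, 1 was higher and 10 were not called. Lower calls made up 19.6% of all genes tested, higher calls 20.4%, and calls in either direction 40.1%. The 50 genes were chosen with earlier results of these data known, so these shares describe the set and do not test it. The fitted log2 fold change was below 0 for 48 of the 50 genes, with a median of -0.81, when the median over all genes tested was 0.01. Most differences were moderate in size, since 12 of the 39 lower genes fell more than 2-fold (6.59% of all genes tested were called lower by as much). The CPM of the 3 AS samples lay below that of all 3 WT samples in 36 members and above it in 1, where 26.0% and 26.4% of all genes tested did so, and 52.3% did one or the other. In these bulk samples, fewer dividing cells and less RNA of these genes per cell cannot be told apart.

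**Figure D1:**
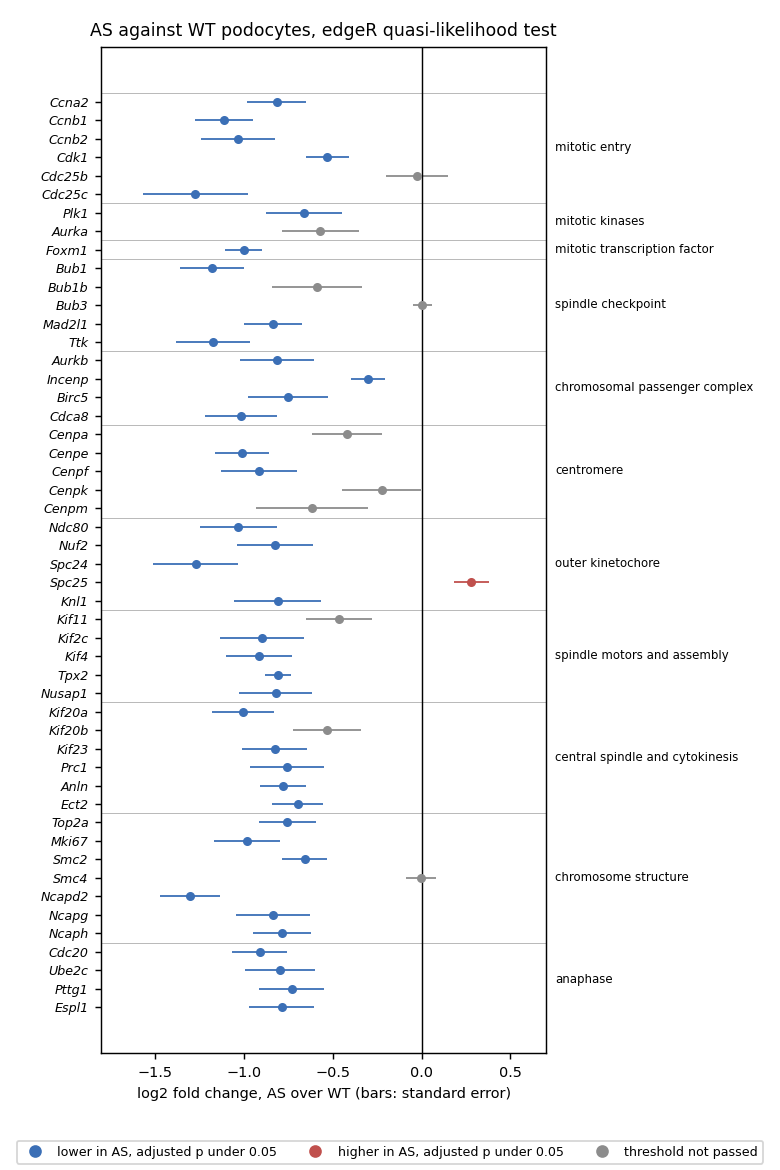
Log2 fold change of AS over WT podocytes for each of the 50 genes, by role, with bars of 1 standard error and colours for the edgeR call. Nearly all points lie left of 0, between -1.30 (Ncapd2) and 0.28 (Spc25), while Cdc25b, Bub3 and Smc4 lie at 0 within their standard errors.

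The 6 samples were then described one by one, because WT set 3 differed from the other WT sets. Per member, the log2 of CPM plus 0.5 was taken relative to its mean over the 6 samples. The median of the 50 genes was 0.54 in WT set 1, 0.62 in WT set 2 and -0.03 in WT set 3. It was -0.41, -0.40 and -0.29 in AS sets 1 to 3, while the median of all genes tested stayed between -0.0042 and 0.012 in every sample. WT set 3 thus lay between the other WT samples and the AS samples. It was the lowest WT sample for 49 of the 50 members, the exception being Espl1, where set 3 is the lowest WT sample for 30.9% of all genes tested. Its level was 0.650 times the mean of WT sets 1 and 2 for the median member, from a log2 difference of -1.08 (Bub1b) to -0.05 (Bub3). WT set 3 lay above every AS sample for 36 members, against 37.7% of all genes tested. These are the same 36 members whose AS samples all lay below all WT samples, so this is not a second result. The mean of the AS samples was below WT set 3 in 41 members. The median log2 difference of the AS mean from WT set 3 alone was -0.32.

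**Figure D2:**
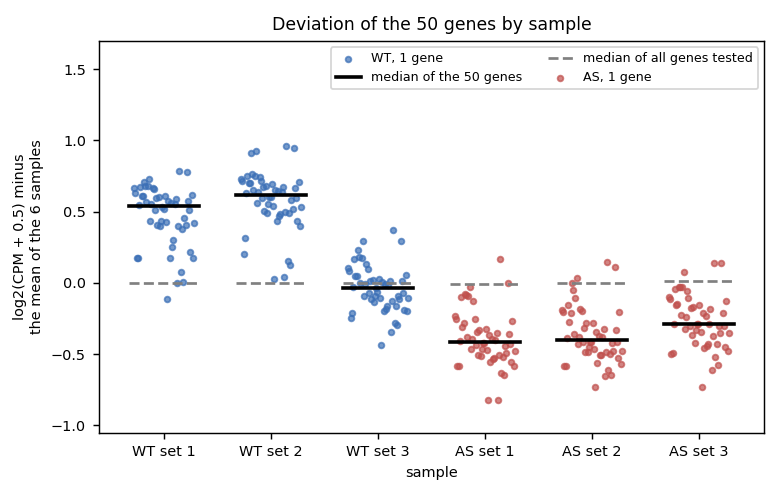
Deviation of log2(CPM + 0.5) from the mean of the 6 samples for the 50 genes in each sample, where each point is 1 gene, the black line is the median of the 50 and the dashed line that of all genes tested. WT sets 1 and 2 lie highest (medians 0.54 and 0.62), WT set 3 near 0 and the AS sets lowest (-0.41, -0.40 and -0.29).

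The AS samples varied less among themselves. AS set 3 was the highest AS sample for 30 members and AS set 1 the lowest for 25. The summed CPM of the 50 genes was 972 and 1029 in WT sets 1 and 2 and 701 in WT set 3, whereas it was 561, 563 and 603 in the AS sets. The share of counts from mitochondrial genes was 0.882, 1.39 and 1.68% in WT sets 1 to 3 and 1.30, 1.65 and 2.02% in AS sets 1 to 3, and its part in the difference of WT set 3 was not tested. Without WT set 3, 44 members were lower and 0 higher (1 higher with all samples), and all 39 genes called lower with all samples stayed so. The median log2 fold change was then -1.005. WT set 3 was the lowest WT sample for 49 of the 50 members. Leaving it out raised the WT mean of those genes, so this fit is not an independent check of the lower calls. With each sample left out in turn, between 33 and 44 members were lower, and 32 members were called lower in every such fit.

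**Figure D3:**
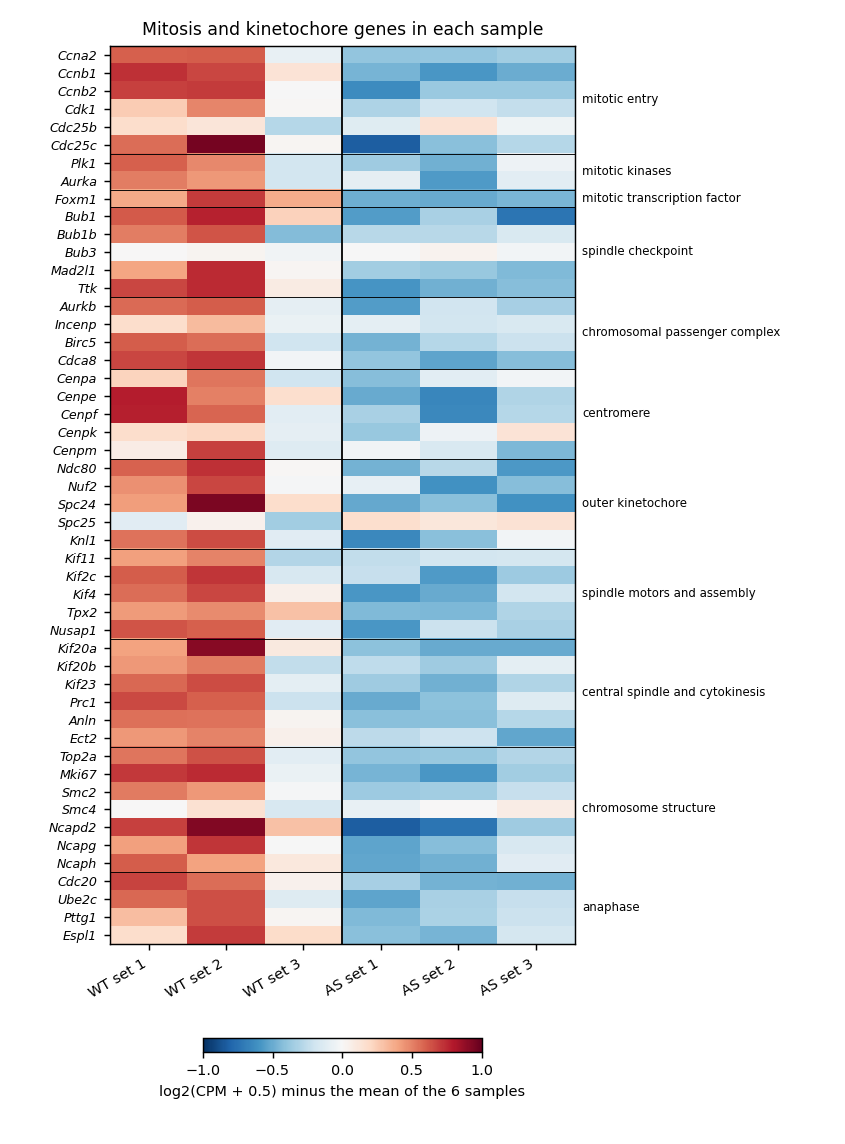
Deviation of log2(CPM + 0.5) from the mean of the 6 samples for each gene (rows, by role) in each sample (columns), red for higher and blue for lower. Most rows are red in WT sets 1 and 2 and blue in the AS sets, with WT set 3 in between for most genes. At least 1 AS set lies above 0 for Cdc25b, Bub3, Cenpk, Spc25 and Smc4, and WT set 3 runs from -0.43 (Bub1b) to 0.37 (Foxm1).

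Of the 6 genes of mitotic entry, 5 were lower in AS podocytes. Ccnb1, cyclin B1 (ENSMUSG00000041431.17, chromosome 13), was at 15.1, 14.5 and 9.84 CPM in the WT sets and 6.33, 5.78 and 6.18 CPM in the AS sets. The AS samples lay close together below all WT samples, and the log2 fold change was -1.11 (SE 0.16, adjusted p = 0.000594, edgeR). Ccnb1 has 4 pseudogenes that match at least 95% of 200 or more of its bases and that held 0 to 8 counts, and how shared reads were counted is not stated. Cdk1, the kinase that cyclin B activates (ENSMUSG00000019942.14, chromosome 10), was at 18.8, 22.2 and 15.8 CPM in WT and 12.6, 13.6 and 13.2 CPM in AS samples. Its log2 fold change was -0.53 (SE 0.12, adjusted p = 0.00682, edgeR). Chromosome medians were taken only over genes above a cutoff of mean level. The median log2 fold change of the 530 such genes on chromosome 10 was 0.31 above that of all such genes. With that median removed the log2 fold change of Cdk1 was -0.84. Ccna2, cyclin A2, was at 24.5, 24.6 and 15.2 CPM in WT and 12.01, 12.1 and 12.4 CPM in AS samples, and it had the highest mean level of the 6.

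The phosphatases that activate Cdk1 differed from each other in these data. Cdc25c was at 3.69, 5.04 and 2.38 CPM in WT and 1.11, 1.63 and 1.84 CPM in AS samples, a log2 fold change of -1.27 (SE 0.30, adjusted p = 0.00751, edgeR). Cdc25b was at 4.99, 4.79 and 3.49 CPM in WT and 3.95, 4.86 and 4.22 CPM in AS samples, so that the groups overlapped. Its log2 fold change was -0.03 (adjusted p = 0.923, edgeR), and the 95% confidence interval from limma-voom ran from -0.41 to 0.38.

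Foxm1, the transcription factor that acts on many late cell cycle genes (ENSMUSG00000001517.15, chromosome 6), was at 23.0, 29.0 and 22.9 CPM in WT and 12.4, 12.3 and 12.7 CPM in AS samples. The AS samples lay close together and far below the WT samples, with a log2 fold change of -1.0004 (SE 0.10, adjusted p = 7.13e-05, edgeR). By the same cutoff of mean level as for Cdk1, genes on chromosome 6 had a median of -0.21 relative to all such genes. With that median removed the Foxm1 difference is smaller, and Foxm1 was still called lower. WT set 3 was level with WT set 1 for Foxm1, unlike for most members. Of the mitotic kinases, Plk1 was lower in AS podocytes and Aurka was not called. Plk1, which acts from mitotic entry to cytokinesis, was at 12.2, 11.2 and 6.85 CPM in WT and 6.04, 5.49 and 7.56 CPM in AS samples, so that WT set 3 lay below AS set 3. Its log2 fold change was -0.66 (SE 0.21, adjusted p = 0.0332, edgeR). Plk1 was no longer called without WT set 1, WT set 2, AS set 1 or AS set 2. Aurka, the spindle pole kinase, was at 8.99, 8.46 and 5.35 CPM in WT and 5.73, 3.99 and 5.67 CPM in AS samples (log2 fold change -0.57, adjusted p = 0.0623, edgeR). Aurka was called lower without WT set 3, with DESeq2 and without a filter.

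Of the 5 spindle checkpoint genes, Bub1, Mad2l1 and Ttk were lower, and Bub1b and Bub3 were not called. Bub1, a checkpoint kinase at the kinetochore (ENSMUSG00000027379.15, chromosome 2), was at 9.29, 10.4 and 7.001 CPM in WT and 3.84, 4.61 and 3.34 CPM in AS samples, 0.442 times the WT level (log2 fold change -1.18, SE 0.18, adjusted p = 0.000813, edgeR). Bub3, which carries Bub1 to the kinetochore, was at 68.7, 69.9 and 67.0 CPM in WT and 68.6, 70.4 and 67.3 CPM in AS samples. All 6 samples lay within a narrow range, and the 95% confidence interval of the log2 fold change from limma-voom was -0.11 to 0.12. Bub1b was the member that differed most between the WT sets, at 9.33 and 10.1 CPM in sets 1 and 2 and 4.59 CPM in set 3, which was below the AS samples (5.17, 5.17 and 5.69 CPM). Bub1b was called lower without that set, with DESeq2 and without a filter.

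All 4 genes of the chromosomal passenger complex, which corrects faulty attachments of chromosomes to the spindle, were lower in AS podocytes. Their groups did not overlap, where 26.0% of all genes tested had every AS sample below every WT sample. Cdca8, borealin, was at 9.68, 10.0 and 5.79 CPM in WT and 4.40, 3.95 and 4.29 CPM in AS samples (log2 fold change -1.01, SE 0.20, adjusted p = 0.00343, edgeR). Incenp, the scaffold of the complex, differed least, at 29.5, 32.6 and 24.9 CPM in WT and 24.4, 22.9 and 23.4 CPM in AS samples. Its log2 fold change was -0.30 (SE 0.10, adjusted p = 0.0324, edgeR). Incenp was no longer called without WT set 2 or without any 1 of the AS sets. Aurkb, the kinase of the complex, was at 0.569 times the WT level and Birc5, survivin, at 0.593 times. Birc5 lost the threshold without each sample other than WT set 3.

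Among the centromere genes, Cenpe and Cenpf were lower and Cenpa, Cenpk and Cenpm were not called. Cenpe, a motor that moves chromosomes to the spindle equator (ENSMUSG00000045328.12, chromosome 3), was at 43.8, 36.0 and 28.4 CPM in WT and 17.6, 15.8 and 20.3 CPM in AS samples (log2 fold change -1.01, SE 0.15, adjusted p = 0.000669, edgeR). Cenpk, a subunit of the inner kinetochore, was at 2.43, 2.48 and 1.93 CPM in WT and 1.49, 2.00 and 2.34 CPM in AS samples, and the groups overlapped (log2 fold change -0.22, adjusted p = 0.466, edgeR). Cenpa, the histone that marks the centromere, had a log2 fold change of -0.42 (adjusted p = 0.125, edgeR), and was called lower without WT set 3, without a filter and with chromosome medians removed.

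The outer kinetochore held the one gene that was higher in AS podocytes. Spc25 (ENSMUSG00000005233.17, chromosome 2) was at 19.6, 21.9 and 16.6 CPM in WT and 24.0, 23.1 and 23.5 CPM in AS samples. All AS samples lay above all WT samples, with a log2 fold change of 0.28 (SE 0.10, adjusted p = 0.0477, edgeR). This call was lost when any 1 sample other than WT set 2 was left out (adjusted p between 0.0556 and 0.144, edgeR), and with relative log expression factors (0.0535, edgeR). Its partners in the NDC80 complex, which grips the spindle fibres, were all lower. Spc24 (ENSMUSG00000074476.7, chromosome 9), which pairs with Spc25, was at 3.63, 5.45 and 2.99 CPM in WT and 1.67, 1.81 and 1.53 CPM in AS samples, 0.415 times the WT level (log2 fold change -1.27, SE 0.24, adjusted p = 0.00252, edgeR). Ndc80 was at 0.489 and Nuf2 at 0.565 times the WT level, and the scaffold Knl1 at 0.571 times. For Knl1 the groups overlapped, and its call was lost without WT set 2, AS set 1 or AS set 2. Nuf2 was no longer called without AS set 3.

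Levels were compared between subunits per length, as CPM per kilobase of merged exons. In WT podocytes Spc25 was at 6.09 ± 0.830 (SD, n = 3) per kilobase, against 0.865 ± 0.229 for Ndc80, 1.21 ± 0.297 for Nuf2 and 1.56 ± 0.495 for Spc24 (SD, n = 3 each). In AS podocytes Spc25 was at 7.39 ± 0.139 and the other subunits were between 0.423 and 0.684 (SD, n = 3). Spc25 RNA stood above that of its partners in every sample. Among the partners, Spc24 and Nuf2 did not differ beyond their spread in either genotype, and Ndc80 was lowest in mean in both. With the length of the principal transcript instead, which was chosen after seeing the data, the WT levels were 16.3 for Spc25, 2.55 for Ndc80, 3.19 for Nuf2 and 2.94 for Spc24, so that only the order of Nuf2 and Spc24 changed. In the passenger complex Incenp was highest at 6.70 ± 0.893 (SD, n = 3) per kilobase in WT, and in condensin I Smc4 was highest at 8.96 ± 0.978 (SD, n = 3).

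**Figure D4:**
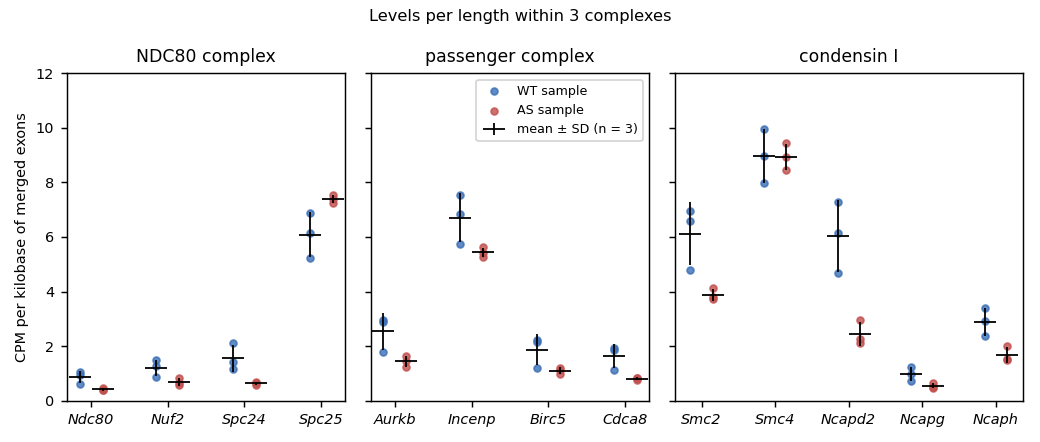
CPM per kilobase of merged exons for the subunits of the NDC80 complex, the chromosomal passenger complex and condensin I, with 1 point per sample and the mean with its SD (n = 3) for WT (blue) and AS (red). Spc25 is above the other NDC80 subunits in both genotypes, and Smc4 is level between genotypes at 8.96 and 8.94 while Ncapd2 is at 6.04 in WT and 2.44 in AS podocytes.

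Of the genes of spindle motors and assembly, 4 of 5 were lower. Tpx2, a spindle assembly factor that activates Aurora A, had the smallest adjusted p of all members and was at 44.6, 46.0 and 40.7 CPM in WT and 24.3, 24.0 and 26.7 CPM in AS samples (log2 fold change -0.81, SE 0.07, adjusted p = 3.56e-05, edgeR). Its WT samples lay close together, and WT set 3 was at 0.898 times the mean of the other WT sets. Kif4, a chromosome-bound kinesin on the X chromosome, was at 12.5, 13.5 and 8.60 CPM in WT and 5.37, 5.70 and 7.25 CPM in AS samples (log2 fold change -0.91, SE 0.18, adjusted p = 0.00360, edgeR). Kif11, the motor that pushes the spindle poles apart, was at 16.3, 17.3 and 9.86 CPM in WT and 10.2, 10.6 and 10.8 CPM in AS samples. WT set 3 was the lowest of all 6, and Kif11 was called lower only when that sample was left out, with DESeq2, without a filter or with chromosome medians removed (log2 fold change -0.46, adjusted p = 0.0720, edgeR).

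Of the genes of the central spindle and cytokinesis, 5 of 6 were lower. Kif20a, a kinesin of the central spindle, was at 27.6, 39.5 and 22.3 CPM in WT and 15.5, 14.5 and 14.5 CPM in AS samples, 0.498 times the WT level (log2 fold change -1.005, SE 0.18, adjusted p = 0.00163, edgeR). Anln, anillin of the contractile ring, had the highest level of this role, at 47.4, 47.0 and 32.8 CPM in WT and 23.9, 24.0 and 26.3 CPM in AS samples (log2 fold change -0.78, SE 0.13, adjusted p = 0.00129, edgeR). The groups did not overlap in either gene. Kif20b was at 14.4, 15.3 and 8.78 CPM in WT and 8.75, 8.11 and 9.79 CPM in AS samples, and was not called (log2 fold change -0.53, adjusted p = 0.0515, edgeR). Kif20b was called lower without WT set 3, with relative log expression factors, with DESeq2, without a filter and with chromosome medians removed. Kif23, Prc1 and Ect2 were at 0.564, 0.592 and 0.617 times the WT level. For Prc1 the groups overlapped, and its call was lost without WT set 2, AS set 1 or AS set 2. Ccna2, Cdc20, Cdc25b, Cdca8, Cenpk, Kif20a, Kif4, Ncapg and Prc1 share exon sequence with a gene on the opposite strand that held over 1000 counts, such as Cdc23 for Kif20a, and no source says whether strand was used in counting, so that their values are uncertain.

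Among the genes of chromosome structure, 6 of 7 were lower. Mki67, the source of the Ki-67 antigen used to stain dividing cells (ENSMUSG00000031004.9, chromosome 7), was at 64.1, 65.8 and 37.2 CPM in WT and 28.2, 25.9 and 30.5 CPM in AS samples (log2 fold change -0.98, SE 0.19, adjusted p = 0.00253, edgeR). Top2a, the topoisomerase that untangles sister chromatids, was at 58.4, 62.7 and 37.4 CPM in WT and 30.4, 30.7 and 32.8 CPM in AS samples (log2 fold change -0.76, SE 0.16, adjusted p = 0.00478, edgeR). For both genes WT set 3 was nearer to the AS samples than to WT sets 1 and 2, although it stayed above them.

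The subunits of condensin I, the ring that compacts chromosomes, differed among themselves. Ncapd2 (ENSMUSG00000038252.14, chromosome 6) had the lowest log2 fold change of the 50 genes, at 38.5, 45.7 and 29.3 CPM in WT and 13.2, 14.2 and 18.5 CPM in AS samples. The AS level was 0.405 times that of WT (log2 fold change -1.30, SE 0.17, adjusted p = 0.000294, edgeR). Spc24 and Cdc25c, both at -1.27, lay within its SE, and with chromosome medians removed Ncapd2 was at -1.09 and Spc24, at -1.25, was lowest. Ncapg, Ncaph and Smc2 were at 0.560, 0.581 and 0.634 times the WT level. Smc4, which pairs with Smc2 in condensin I and II, was at 46.7, 51.8 and 41.6 CPM in WT and 44.1, 46.6 and 49.1 CPM in AS samples. The groups overlapped, and the 95% confidence interval of the log2 fold change from limma-voom was -0.19 to 0.19.

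The 4 genes of anaphase were all lower, with no overlap between the groups. Among all genes tested, 26.0% had every AS sample below every WT sample. Cdc20, which activates the anaphase-promoting complex, was at 21.9, 20.1 and 14.0 CPM in WT and 10.7, 9.59 and 9.58 CPM in AS samples (log2 fold change -0.91, SE 0.15, adjusted p = 0.00141, edgeR). Pttg1, securin, was at 6.53, 8.42 and 5.27 CPM in WT and 3.69, 4.07 and 4.42 CPM in AS samples (log2 fold change -0.73, SE 0.18, adjusted p = 0.0109, edgeR). Ube2c, the ubiquitin-conjugating enzyme of the complex, was at 0.576 and Espl1, separase, at 0.580 times the WT level.

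Other genes of cell division were counted from 8 lists, where 19.6% of all genes tested were called lower and 20.4% higher. Of 33 other spindle, centrosome and cytokinesis genes, 26 were lower and 1 was higher (median log2 fold change -0.65). Depdc1b was at 0.358 and Cdca3 at 0.420 times the WT level, while Gtse1, a microtubule-bound protein, was at 92.6, 110.0 and 101 CPM in WT and 138, 144 and 149 CPM in AS samples. Of 32 other centromere and kinetochore genes, 12 were lower and 2 higher (median -0.34). Ska1 and Zwilch were at 0.345 and 0.618 times the WT level. Hjurp, the chaperone that places the centromere histone Cenpa, was at 30.7, 28.8 and 24.4 CPM in WT and 55.7, 61.1 and 67.3 CPM in AS samples, 2.19 times the WT level (adjusted p = 2.46e-05, edgeR).

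Of 19 S phase genes, 13 were lower and 1 was higher (median -0.48), with the cyclins Ccne2 and Ccne1 at 0.406 and 0.575 times and the nucleotide reductase subunit Rrm1 at 0.715 times the WT level. WT set 3 was the lowest WT sample for all 19, with a median log2 difference of -0.47 from the other WT sets. Of 17 tested regulators of mitotic entry and exit, 7 were lower and 3 higher (median -0.14). Mastl, a kinase that keeps cells in mitosis, was at 0.626 times, Cks2 at 0.675 times and the phosphatase subunit Ppp1cc at 1.25 times the WT level. With chromosome medians removed Ppp1cc was not called, and the list held 6 lower genes and 1 higher. Of 18 E2F, MuvB and DREAM regulators, which control cell cycle genes, 7 were lower and 3 higher (median -0.29), or 6 and 0 with chromosome medians removed. E2f8 was at 0.424, the MuvB subunit Lin9 at 0.593 and E2f1 at 0.754 times the WT level. E2f1 was at 21.4, 21.4 and 21.2 CPM in the WT sets, with no drop in set 3, whereas E2f8 in set 3 was at 0.689 times the other WT sets. WT set 3 was the lowest WT sample for 13 of the 18 regulators, with a median log2 difference of -0.10.

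The anaphase-promoting complex and cohesin, which also act outside mitosis, were in lists with a median log2 fold change just above 0. Of all genes tested, 20.4% were called higher and 19.6% lower. Of 17 genes of the anaphase-promoting complex, 7 were higher and 3 lower (median 0.04), with Cdc16, Anapc5 and Anapc4 at 1.36, 1.33 and 1.29 times the WT level. Cdc16 lies on chromosome 8, and Anapc5 and Anapc4 lie on chromosome 5. The median log2 fold change of genes above the cutoff of mean level was shifted by 0.31 and 0.19 on these chromosomes. With these medians removed the log2 fold changes of Cdc16, Anapc5 and Anapc4 were 0.14, 0.22 and 0.18. Cdc16 was then no longer called, and the list held 4 higher and 4 lower genes. Of 13 cohesin and condensin II genes, 4 were higher and 2 lower (median 0.07), with Nipbl at 1.27 and Smc3 at 1.24 times and the condensin II subunit Ncapg2 at 0.573 times the WT level. With chromosome medians removed, 0 of the 13 genes were higher and 2 lower, and the log2 fold changes of Nipbl and Smc3 went from 0.34 to 0.15 and from 0.32 to 0.14.

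Of 7 CDK inhibitors, which stop the cell cycle, 4 were higher and 1 was lower (median 0.22). Cdkn2b, p15, was at 71.0, 85.3 and 95.5 CPM in WT and 134, 118 and 128 CPM in AS samples, 1.51 times the WT level (adjusted p = 0.00134, edgeR). Cdkn1b, p27, was at 1.28 times and Cdkn2c, p18, at 0.711 times, a call that was lost with chromosome medians removed. Cdkn1a, p21, had the highest level of the 7, at 895 to 991 CPM in WT and 918 to 940.2 CPM in AS samples, and was not called (log2 fold change -0.03, adjusted p = 0.721, edgeR).

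**Figure D5:**
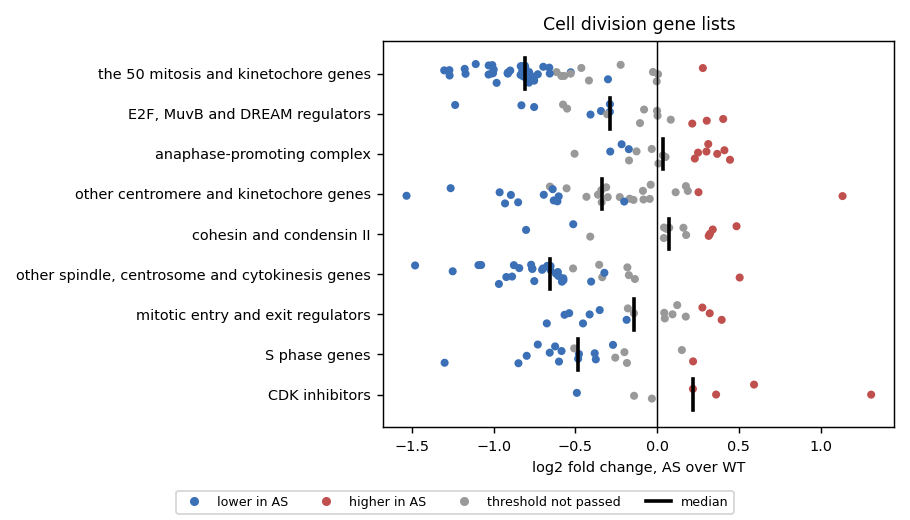
Log2 fold change of AS over WT podocytes for every tested gene of the 50 mitosis and kinetochore genes and of 8 other lists, where each point is 1 gene coloured by its edgeR call and the black line is the median of the list. The medians of the 50 genes (-0.81), of the other spindle genes (-0.65) and of the S phase genes (-0.48) lie lowest, and that of the CDK inhibitors (0.22) highest.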

How the data were processed

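RNA was sequenced from 3 samples of each podocyte line. The deposited values are raw counts, whole numbers for each gene and sample that the authors had not normalized. Per the labels, mRNA libraries were amplified for 15 PCR cycles. The submitters' processing notes name FastQC, Trim Galore, STAR and edgeR with the build mm39. The sources used here do not give the annotation or the strand setting. Identifiers without their version were matched to GENCODE M21 (GRCm38) for symbols, chromosomes and exon lengths (51880 of 57132), and gene coordinates are therefore not given.

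Low genes were removed with filterByExpr at a count of 10 per sample and 15 in total. TMM factors and the two-sided quasi-likelihood test came from edgeR 4.0.16 (R 4.3.3), with genotype as the only term and Benjamini-Hochberg adjustment over 16263 genes. Standard errors are approximate and were taken from the F statistic. limma 3.58.1 and DESeq2 1.42.0 were alternatives. The tests were also run on simulated counts. The simulated samples were independent and few genes were changed, so that run does not speak to false calls in this design. The smallest p of an exact permutation test with 3 samples a group is 0.10. The 50 genes and the lists were chosen with earlier results of these data known. Sample values are given for the members with the highest level and with the highest and lowest log2 fold change in each of 11 roles and for Ccnb1, Cdk1, Foxm1, Mki67 and Top2a, and at most 3 genes with the smallest adjusted p are named per list. Other genes named (Bub1b, Cenpa, Cdkn1a and the marker genes) were chosen after their values were seen. Lin54 was listed and not analysed here.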

Additional observations from a re-analysis of the deposited data

How the results depend on the processing

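Alternatives were other scaling, DESeq2, limma-voom, other filters, a replicate block, each sample left out and chromosome medians removed. The number of members called (40), the number called lower (39), the number without overlap (37) and the median log2 fold change (-0.81) stayed within 1.5 times or the spread between samples in each of them. No rise in these counts could pass 1.5 times, since the set holds 50 genes. The spread includes the distance of WT set 3 from the other WT sets. The number called was 45 with no filter, 44 with DESeq2, 43 with chromosome medians removed and 33 to 44 with each sample left out. With 1 sample omitted the median lay between -1.005 and -0.66. The 1 member called higher, Spc25, became 0 with relative log expression factors and 0 to 1 with 1 sample omitted. The counts called in the 8 lists stayed within 1.5 times with the other filters, limma-voom and DESeq2. With chromosome medians removed, an alternative for the lists chosen after seeing the data, higher calls went from 3 to 0 for E2F, MuvB and DREAM regulators, from 7 to 4 for the anaphase-promoting complex, from 4 to 0 for cohesin and condensin II, from 3 to 1 for mitotic entry and exit regulators and from 1 to 0 for S phase genes, and lower calls from 1 to 0 for CDK inhibitors.

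Of the values of single members, 636 kept direction and side of the threshold, 28 lost the threshold, 18 gained it and 18 changed sign, the last all in Cdc25b, Bub3 and Smc4, which were called in no fit. The Cdc25b log2 fold change was 0.0037 with library size only and 0.011 with chromosome medians removed, and lay between -0.17 and 0.070 with 1 sample omitted. The Bub3 log2 fold change was -0.0038 with relative log expression factors, -0.0038 with DESeq2 and -0.0019 with the mean CPM filter at 1, and lay between -0.018 and 0.022. The Smc4 log2 fold change was 0.025 with library size only, 0.0030 with limma-voom, 0.00074 with no filter, 0.00089 with the replicate block and 0.11 with chromosome medians removed, and lay between -0.081 and 0.076. The cause was not tested.

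The set numbers did not pair all samples in either choice of genes. Deviations of samples with the same number correlated at 0.147, 0.0939 and 0.0526 over all genes tested. Over genes with a mean log2 CPM over 3 they correlated at 0.501, 0.306 and 0.188. WT set 3 correlated more with AS set 2 than with AS set 3 in both (0.0571 and 0.277). With the replicate block, 40 members were called, 39 of them lower. Cenpm had the fewest counts of the members, 424 in all, and the largest SE, 0.31.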
